A study of Mus musculus with 8 samples.

Results

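The genes described here repair broken and crosslinked DNA by homologous recombination and the Fanconi pathway, or halt the cell cycle while repair is made. They are 40 genes of a fixed list, chosen by function but with earlier results of these data known, out of 21444 genes with at least 1 count in this series. All 40 had counts, and 39 passed the filter on low counts and were tested among 10990 genes. The gene left out, Fancf, was nearly silent.

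RNA was measured in mouse primordial germ cells, the embryonic precursors of eggs and sperm, at embryonic day 11.5. The 4 Control libraries carried Blimp1Cre and 1 floxed copy of Prmt5 (genotype Blimp1Cre;Prmt5flox/+), and the 4 Prmt5 KO libraries carried Blimp1Cre with both copies floxed (Blimp1Cre;Prmt5flox/flox). Every embryo thus carried the Cre recombinase, which Blimp1 regulatory sequence drives in germ cells and in some other embryonic cells, and the controls keep a single unfloxed copy of Prmt5. All were on a mixed C57BL/6 and 129 background and carried the dPE_Oct4 GFP reporter by which the cells were sorted, and each library was made from 50 pg of RNA and read on a SOLiD instrument. Nothing in the labels ties the libraries to separate embryos or litters, so each p-value is set against library-to-library spread, part of which may be technical.

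Homologous recombination copies lost sequence back from the sister chromatid. The MRE11-RAD50-NBN complex and CtIP trim the broken ends, and BRCA1 and BRCA2 with their partners prepare the trimmed strand, which then invades the intact copy with the help of RAD54. The Fanconi proteins form a ubiquitin ligase that marks FANCD2 and FANCI at crosslinked DNA. The kinases ATM and ATR sense the lesions and signal through CHK2 and CHK1, and the histone H2AX is phosphorylated around a break, where MDC1, RNF8, RNF168 and 53BP1 gather. Germ cells depend on this machinery: mice that lack Fanconi genes are known to lose primordial germ cells. PRMT5 is the main enzyme that places symmetric dimethylarginine on histones and splicing proteins. The comparison asks whether the RNA of these genes differs between germ cells of the 2 genotypes in the period of global DNA demethylation.

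The targeted gene matched the labels: Prmt5 was at 89.4, 170.5, 171.7 and 118.4 CPM (a gene's counts relative to its library's total, scaled between libraries) in Control 1 to 4 and at 39.9, 40.5, 35.3 and 26.4 CPM in Prmt5 KO 1 to 4. It fell with a log2 fold change of -1.95 (SE 0.27, edgeR quasi-likelihood test, adjusted p = 0.0389). Gene counts summed to between 1811428 and 6549504 per library, and the shallowest were Control 3 and Control 2. Germ cell markers, 14 of 14 with counts, summed to 3782 to 4324 CPM in Control and 3842 to 4682 CPM in Prmt5 KO. Markers of somatic gonad and mesonephros, 15 of 15 with counts, summed to 140.3 to 219.7 CPM in Control and 176.7 to 798 CPM in Prmt5 KO, where the highest value is that of Prmt5 KO 1. Mfge8 alone made up most of this sum in every library but Prmt5 KO 1, with 114.3 of 140.3 CPM in Control 1 and 177.3 of 798 CPM in Prmt5 KO 1. The rest of the list thus set Prmt5 KO 1 further apart than the sums show. Acta2, for example, was at 207.7 CPM there and at most 7.13 CPM elsewhere. Prmt5 KO 1 and Prmt5 KO 4 lay apart from the other libraries in multidimensional scaling, Prmt5 KO 1 on dimension 2 (-2.26, the others from -0.39 to 0.89) and Prmt5 KO 4 on dimension 1 (-2.69, the others from 0.21 to 0.86). What part these libraries and the somatic RNA had in the results was not tested beyond leaving them out.

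No gene of the set passed the test. Of 39 tested members 0 were called by edgeR's quasi-likelihood test at 0.05 after Benjamini-Hochberg adjustment over all genes, where 0.0273% of all genes were called, and the lowest adjusted p of a member was 0.540. At an unadjusted p under 0.05 there were 2 members, or 5.13% of those tested against 8.15% of all genes: Fancb higher (4.47% of all genes in that direction) and Rad54l lower (3.69%). The libraries of the groups did not overlap for 3 members (7.69%), against 4.9% of all genes. DESeq2 also called 0 members, where it called 1.02% of all genes. At an unadjusted p under 0.05 it had 3 members, these and Rnf168, or 7.69%, against 10.1% of all genes. The members' log2 fold changes ran from -0.82 to 0.90 with a median of 0.02, beside a median of 0.03 over all genes. Of the 39 members 21 had a log2 fold change above 0 (53.8%, against 52.7% of all genes). In these bulk samples fewer cells of a type and less RNA per cell cannot be told apart.

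**Figure D1:**
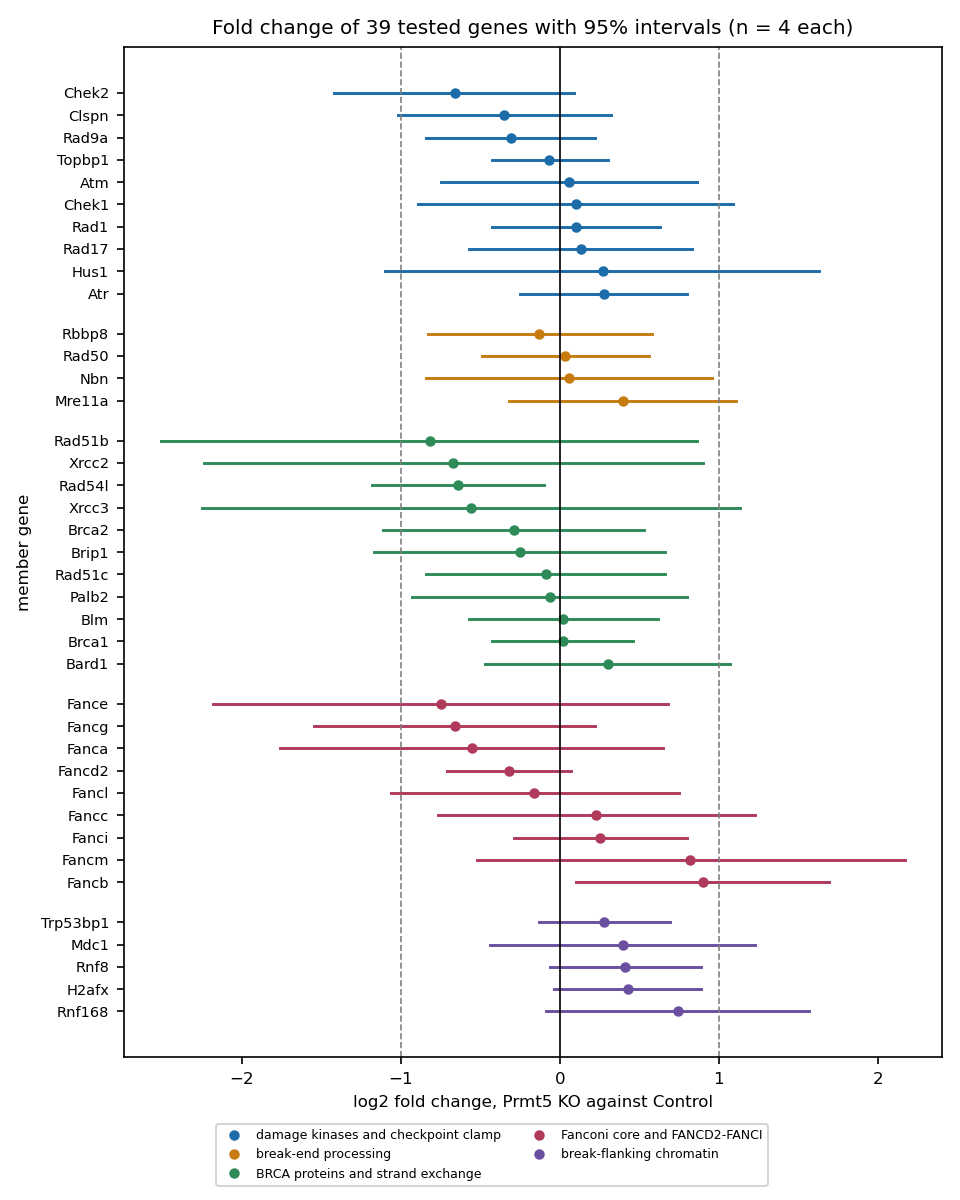
Log2 fold change of each of the 39 tested members (point, x axis; genes on the y axis, coloured by role) with its 95% interval (line), Prmt5 KO against Control, n = 4 each; dashed lines mark a 2-fold change. The intervals of Rad54l and Fancb lie to one side of 0, and 18 of the 39 intervals lie wholly between the dashed lines.

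How large a change the libraries could have missed differs between members. For 18 of the 39 the 95% interval of the fold change lay wholly within 2-fold in either direction (46.2%, against 33.6% of all genes). These include Brca1 (log2 fold change 0.02, interval -0.43 to 0.46), Topbp1 (-0.07, interval -0.43 to 0.30), Rad50 (0.03, interval -0.49 to 0.56) and Fancd2 (-0.32, interval -0.71 to 0.07). For the other 21 the interval reached a 2-fold change, and for scarce genes it was wide: that of Rad51b ran from -2.51 to 0.86. A missed call in that second set says little about whether the level changed. On simulated counts with each gene's fitted spread, a true 2-fold change was called in 22% of genes and a true 4-fold change in 62%. That spread was the same in both groups, and no library was made to stand apart as Prmt5 KO 1 and Prmt5 KO 4 do. The changed genes were drawn at random only from genes above a minimum mean level, not from the members, so the shares are a rough guide. Rad51b and other scarce members lie under it, so these shares do not apply to them.

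**Figure D2:**
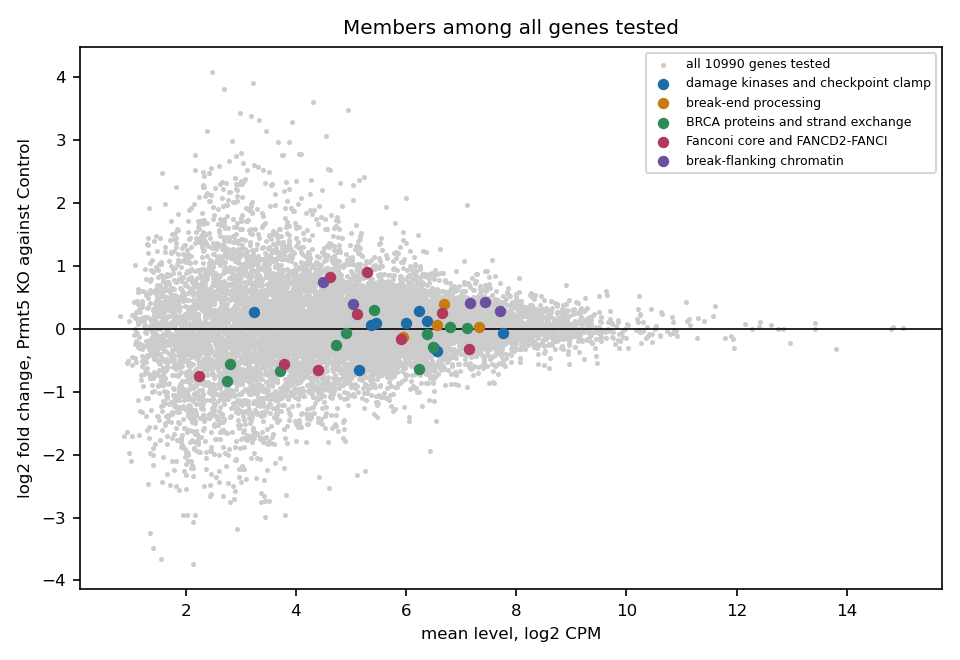
Log2 fold change (y axis) against mean level (x axis, log2 CPM) for all 10990 genes tested (grey) and for the 39 members (coloured by role). The members lie between -0.82 and 0.90, inside the cloud of all genes.

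The promoters of the set carry a feature that the choice of members did not use. E2F factors drive genes of DNA replication and repair as cells enter S phase, and in resting or arrested cells the DREAM complex binds such sites and holds the genes down. RefSeq promoters on GRCm38.p6, from 250 bases before to 50 after a start, were found for 33 of the 40 members; Fancd2, H2afx, Nbn, Rad50, Rad9a, Rbbp8 and Xrcc2 had no entry. The letters TTTCCCGC, TTTGGCGC, TTTGCCGC and TTTCGCGC, which spell out an E2F consensus, were searched on both strands, with overlapping matches counted once per promoter. They stood in 8 of the 33 promoters (24.2%), against 4.19% of 10747 promoters of tested genes and 2.27% of all 32841 promoters. For each member only the promoter nearest the start of the transcript used was counted, while the background counts every promoter entry of a gene. The promoter of Rad54l lay 23631 bases from that start. The 8 matches are shown with 10 bases on each side, on the strand of the gene, with the matching letters in capitals.
Chek2, chr5:110839821-110839848, plus strand: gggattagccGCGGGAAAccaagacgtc
Topbp1, chr9:103305188-103305215, plus strand: cgctcggttgGCGCGAAAgtcggttccc
Clspn, chr4:126556991-126557018, plus strand: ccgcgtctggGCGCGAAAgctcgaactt
Brca2, chr5:150522443-150522470, plus strand: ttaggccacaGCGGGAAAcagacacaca
Bard1, chr1:71103164-71103191, minus strand: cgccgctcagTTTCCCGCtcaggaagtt
Rad51c, chr11:87404478-87404505, minus strand: tttccagcgcTTTCGCGCctcttgctct
Fancg, chr4:43010336-43010363, minus strand: ttcttttcagTTTCCCGCggaaccgtct
Mdc1, chr17:35841472-35841499, plus strand: cttcagcctgTTTCCCGCcggtagccgc

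These 8 genes come from 4 of the 5 roles below, from a checkpoint kinase (Chek2) to a Fanconi core subunit (Fancg) and a break mediator (Mdc1). Their median log2 fold change was -0.19, with 2 above 0 and 6 below. It was 0.10 for the 24 tested members whose promoter lacked the letters, Rad54l among them, with 16 above 0 and 8 below. None was called in either set, and the difference was not tested. The signs behind it depend in part on which libraries enter, and the medians were not recomputed with libraries left out. Without Prmt5 KO 1 and Prmt5 KO 4, Rad51c (0.04) was the only gene with the letters to change sign. Several members without the letters did, such as Atm (-0.38), Fancc (-0.34) and Fancl (0.18). A second element through which the same complex acts, the CHR, was searched as TTTGAA and TTCGAA on both strands and stood in 5 of 33 promoters (15.2%, against 14.1% of promoters of tested genes). The members' promoters held a median of 22 CpG dinucleotides in the window of 300 bases, with a range of 3 to 38, close to the median of 21 over promoters of tested genes and above the 7 over all promoters. A match is a description of letters and says nothing about binding.

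The damage kinases and the checkpoint clamp, 10 genes, were all tested and 0 were called, and their median log2 difference of 0.08 became -0.15 without Prmt5 KO 1 and Prmt5 KO 4. Chek2, which encodes the kinase that ATM activates, had the lowest unadjusted p of this role. It was at 47, 45.1, 45.5 and 34.5 CPM in Control 1 to 4 and at 21.6, 37.4, 33.6 and 16 CPM in Prmt5 KO 1 to 4. All 4 Prmt5 KO libraries lay below the Control mean, but Prmt5 KO 2 stood above Control 4, so the groups overlapped. This was a log2 fold change of -0.66 (SE 0.35, edgeR adjusted p = 0.672). Without Prmt5 KO 1 and Prmt5 KO 4 it was -0.27, so the difference was smaller in the libraries that do not stand apart.

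Chek1, the kinase downstream of ATR, varied more within Control than between groups, at 82.8, 24.6, 43.3 and 16.2 CPM in Control and 65.9, 46.3, 33.5 and 33.9 CPM in Prmt5 KO. Its highest and lowest values are both Control libraries. The upstream kinases were Atm, at 40.2 ± 14.5 CPM in Control and 41.7 ± 16.9 CPM in Prmt5 KO, and Atr, at 67.7 ± 12.2 and 82.1 ± 15.1 CPM (SD, n = 4 each). Topbp1, the activator of ATR, had the most counts of the whole set and the smallest SE of all members (0.17), at 219.7 ± 12.4 CPM in Control and 210.2 ± 42.3 CPM in Prmt5 KO (SD, n = 4 each). Claspin, the adaptor that brings CHK1 to ATR, is encoded by Clspn and was at 104.8 ± 46.5 and 82.5 ± 20.8 CPM (SD, n = 4 each).

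Among the genes of the clamp that ATR signalling needs, and of its loader, Rad9a had the highest level per length of this role. It was at 76.2, 129.5, 90 and 108 CPM in Control and at 56.7, 83.9, 96.9 and 87.7 CPM in Prmt5 KO, a log2 fold change of -0.31 (edgeR adjusted p = 0.791). The ranges overlapped, with all 4 Prmt5 KO libraries below the Control mean. Of the Rad9a transcript 10.8% overlaps exons of Ppp1ca on the opposite strand, a gene at 416.2 ± 45.1 CPM in Control (SD, n = 4), and strand use in counting is not given, so the level of Rad9a is uncertain. Of the other subunits, Rad1 was at 61.1 ± 9.56 CPM in Control and 65.3 ± 9.76 CPM in Prmt5 KO (SD, n = 4 each). Hus1 was scarce, at 8.31 ± 3.31 and 9.85 ± 4.93 CPM (SD, n = 4 each). The loader gene Rad17 was at 78.7 ± 19.3 and 86.3 ± 43.9 CPM (SD, n = 4 each), where the larger spread came from 1 library, Prmt5 KO 1 at 151.5 CPM.

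The 4 genes that process broken ends were all tested and 0 were called. Their median log2 fold change of 0.05 was -0.15 without Prmt5 KO 1 and Prmt5 KO 4, so its sign depends on which libraries enter. Mre11a, the nuclease, had the lowest unadjusted p among them: 94.5, 67, 102.6 and 90.9 CPM in Control against 197.6, 94.2, 121.9 and 53.1 CPM in Prmt5 KO. The highest and the lowest library of all 8 were both Prmt5 KO, namely Prmt5 KO 1 and Prmt5 KO 4. The log2 fold change was 0.40 (SE 0.33, edgeR adjusted p = 0.803), and it was 0.02 without Prmt5 KO 1 and 0.64 without Prmt5 KO 4. Its partner Nbn, the highest of this role per length, showed the opposite order in these 2 libraries, at 132, 58.5, 100.9 and 75.3 CPM in Control and 37.5, 68.2, 87.9 and 191.2 CPM in Prmt5 KO. Here Prmt5 KO 1 was lowest and Prmt5 KO 4 highest of all 8, so these subunits of 1 complex were in opposite order in the libraries that stand apart. Rad50, the third subunit, was at 158.5 ± 31.1 CPM in Control and 162.3 ± 56.2 CPM in Prmt5 KO, and Rbbp8, which encodes CtIP, at 63.7 ± 10 and 58.4 ± 22.2 CPM (SD, n = 4 each).

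Among the BRCA genes and those of strand exchange most values were below 0, and none passed. All 11 were tested, 0 were called, 8 had a log2 fold change below 0 and the median was -0.25. That median was -0.08 without Prmt5 KO 1 and Prmt5 KO 4 and -0.06 with transcripts summed. Rad54l (ENSMUSG00000028702, GRCm38 chromosome 4, 116094264 to 116123690, minus strand), which encodes a motor protein of strand invasion, had the lowest unadjusted p of all members. It was at 108.2, 75, 92.7 and 88.7 CPM in Control 1 to 4 and at 40.4, 56.2, 70.8 and 66.3 CPM in Prmt5 KO 1 to 4. Every Prmt5 KO library lay below every Control library, and the nearest were Prmt5 KO 3 and Control 2. It had a log2 fold change of -0.64 (SE 0.25, edgeR adjusted p = 0.540). Groups stood apart like this, in the lower direction, for 2 members, Rad54l and Fancg, and for 2.27% of all genes.

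The value of Rad54l rests on a transcript annotated as non-coding (Rad54l-204), 25.9% of which overlaps exons of Lrrc41 on the opposite strand. Lrrc41 was itself at 42.4 ± 11.5 CPM in Control and 28 ± 6.76 CPM in Prmt5 KO (SD, n = 4 each; log2 fold change -0.60, edgeR adjusted p = 0.681). The coding transcript with the most counts, Rad54l-202, shares 128 bases with Lrrc41 and showed a wider gap, with 100.2, 82.1, 110.8 and 88 CPM in Control and 29.7, 47.3, 56.4 and 56.6 CPM in Prmt5 KO. With coding transcripts as gene values the log2 fold change was -1.0 (SE 0.27, edgeR adjusted p = 0.282). Neither value passed, and the direction was the same on both.

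The 2 BRCA genes themselves had overlapping groups. Brca1 was at 162.3, 141.5, 138.8 and 102.4 CPM in Control and at 166.2, 107.6, 132.3 and 145 CPM in Prmt5 KO, and the groups covered nearly the same range. Brca2 was at 99 ± 35.6 CPM in Control and 80.7 ± 43.5 CPM in Prmt5 KO (SD, n = 4 each), with its lowest value, 34.6 CPM, in Prmt5 KO 4. Of their partners, Bard1, which pairs with BRCA1, was at 38.2 ± 15.3 and 46.7 ± 12 CPM, and Palb2, which joins BRCA1 to BRCA2, at 30.5 ± 8.7 and 28.9 ± 12.2 CPM (SD, n = 4 each). The helicase gene Brip1 was at 28.3 ± 12.9 and 23.9 ± 6.97 CPM (SD, n = 4 each). Blm, the helicase that dissolves crossed strands, was the highest of this role per length, at 102.4, 73.7, 141 and 122.8 CPM in Control and 94.6, 161.4, 119.2 and 71 CPM in Prmt5 KO, with full overlap (log2 fold change 0.02).

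The smaller strand-exchange genes were mostly scarce. Rad51c was the exception, at 84.7 ± 31.3 CPM in Control and 80 ± 32.2 CPM in Prmt5 KO (SD, n = 4 each). Rad51b was at 8.1 ± 4.67 and 4.57 ± 3.84 CPM, Xrcc2 at 15.8 ± 12.1 and 9.85 ± 6.69 CPM, and Xrcc3 at 7.79 ± 2.2 and 5.25 ± 4.91 CPM (SD, n = 4 each). These 3 had log2 fold changes of -0.82, -0.67 and -0.56, the groups overlapped, and no adjusted p was under 0.834. Each had intervals reaching beyond a 2-fold change, so their part in the median of this role rests on few counts.

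The Fanconi genes pointed both ways. Of 10 genes 9 were tested, 0 were called, 4 had a log2 fold change above 0 and 5 below, and the median was -0.16. Fancb (ENSMUSG00000047757, GRCm38 chromosome X, 164980592 to 164997272, plus strand), a subunit of the catalytic part of the core complex, had the highest log2 fold change of any member. It was at 15.9, 37.1, 29.6 and 26.4 CPM in Control 1 to 4 and at 69.2, 40.9, 30.8 and 60.6 CPM in Prmt5 KO 1 to 4. All 4 Prmt5 KO libraries lay above the Control mean, but Prmt5 KO 3 was below Control 2, so the groups overlapped. The log2 fold change was 0.90 (SE 0.37, edgeR adjusted p = 0.561), and 0.41 without Prmt5 KO 1 and Prmt5 KO 4, its 2 highest libraries. As the gene is X-linked, sex was looked at: the Y-linked genes Ddx3y, Eif2s3y and Uty were under 1 CPM in all 8 libraries, with a highest value of 0.893 CPM, and Xist was at 3.35 ± 1.58 CPM in Control and 5.29 ± 3.29 CPM in Prmt5 KO (SD, n = 4 each).

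The other subunits of that catalytic part are the ubiquitin ligase Fancl and Faap100, a gene of the wider list at 16.9 ± 4.94 CPM in Control and 19 ± 5.62 CPM in Prmt5 KO (SD, n = 4 each). Fancl was at 79.6, 68.8, 62.5 and 41.3 CPM in Control and at 14.9, 68.8, 74.1 and 68.5 CPM in Prmt5 KO. One library, Prmt5 KO 1, stood far under the other 7, and it was the library in which Fancb was highest. Of the Fancl transcript 17% overlaps exons of Vrk2 on the opposite strand.

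Fancg, a scaffold subunit of the core complex, was lower in every Prmt5 KO library. It was at 24.2, 24.6, 25.8 and 26.9 CPM in Control and at 18.7, 21.3, 9.08 and 15 CPM in Prmt5 KO, and the Control libraries lay close together. The log2 fold change was -0.66 (SE 0.41, edgeR adjusted p = 0.731), so the separation of the groups did not reach the threshold. The transcript used is annotated with a retained intron, and the coding transcript, with 98.6% as many counts, gave -0.67. The other core subunits were Fanca, at 15.9 ± 6.16 CPM in Control and 10.8 ± 6.49 CPM in Prmt5 KO, Fancc, at 31.2 ± 11.2 and 36.5 ± 24.2 CPM, and Fance, at 5.36 ± 1.61 and 3.17 ± 1.88 CPM (SD, n = 4 each). Fancf had 23 counts over all 8 libraries, between 0 and 1.64 CPM, and was not tested.

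The targets of the complex and its anchor differed in level. Fancd2, the protein that the complex marks with ubiquitin, was the highest of this role per length, at 156.5, 184.4, 154.2 and 134.6 CPM in Control and 118.5, 144.2, 130.5 and 109.7 CPM in Prmt5 KO. All 4 Prmt5 KO libraries lay below the Control mean and only Prmt5 KO 2 reached into the Control range, with a log2 fold change of -0.32 (SE 0.18, edgeR adjusted p = 0.682). Fanci, its partner, was at 122.4, 82.6, 79 and 82.8 CPM in Control and 98.8, 89.1, 89.7 and 161 CPM in Prmt5 KO, a log2 fold change of 0.25. One high library in each group, Control 1 and Prmt5 KO 4, set the spread of Fanci. Polg, whose exons on the opposite strand cover 20.5% of the Fanci transcript, was also highest in Prmt5 KO 4 (329.5 CPM, the others from 135.5 to 180.5 CPM), and its part in the value was not tested. Fancm, the DNA translocase that anchors the complex, was at 17.6 ± 14.6 and 30.5 ± 24 CPM (SD, n = 4 each), with 65.9 CPM in Prmt5 KO 1. Its log2 fold change of 0.82 was 0.12 without that library and 1.54 without Control 3, its highest Control library at 38.9 CPM.

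**Figure D3:**
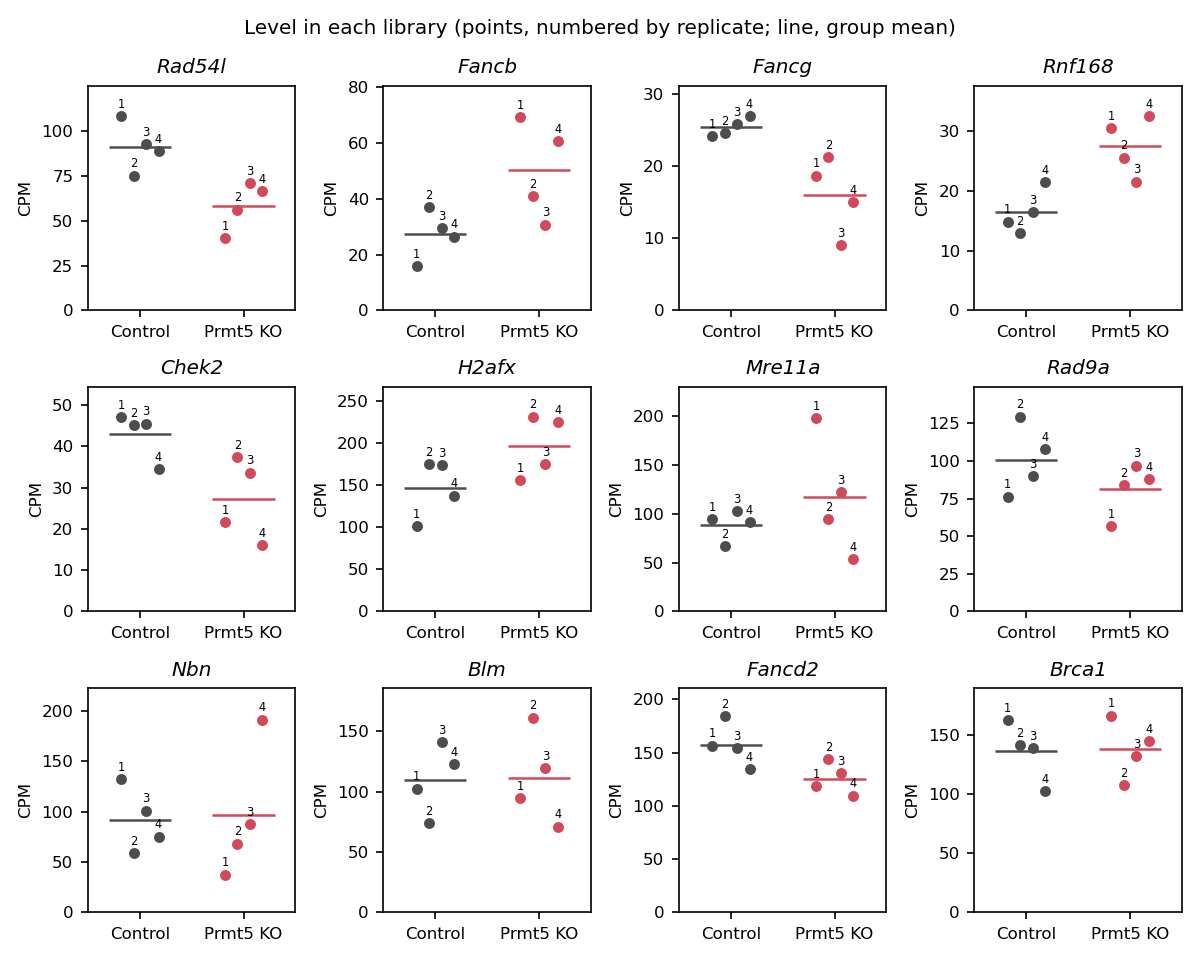
CPM (y axis, from 0) of 12 members in each library of Control (grey) and Prmt5 KO (red); points carry the replicate number and lines are group means. The groups do not overlap for Rad54l, Fancg and Rnf168, and overlap for the other 9.

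The genes that act on chromatin around a break follow. All 5 were tested and 0 were called. Each log2 fold change was above 0, as for 52.7% of all genes, and their median was 0.41. Of 12 other break chromatin genes outside the set, 5 were above 0 and the median was -0.08. H2afx, the histone variant phosphorylated at breaks, had the lowest unadjusted p of this role: 101.4, 175.4, 173.9 and 137.6 CPM in Control and 156, 231.8, 174.8 and 225 CPM in Prmt5 KO. The 2 highest libraries were Prmt5 KO 2 and 4, the 2 lowest Control 1 and 4, and the ranges overlapped. This gave a log2 fold change of 0.43 (SE 0.21, edgeR adjusted p = 0.651). A pseudogene elsewhere, Gm11336, shares 203 bases at 96.1% identity with H2afx and had no counts of its own.

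Rnf168, the ubiquitin ligase that extends the mark on histone H2A, was the 1 member with every Prmt5 KO library above every Control library, as for 2.63% of all genes. It was at 14.9, 12.9, 16.5 and 21.5 CPM in Control and at 30.6, 25.6, 21.6 and 32.6 CPM in Prmt5 KO. Control 4 and Prmt5 KO 3 were nearly level. The log2 fold change was 0.74 (SE 0.39, edgeR adjusted p = 0.664). Rnf8, the ligase that acts before it, was at 92.8, 100.9, 144.3 and 148.8 CPM in Control and 200.8, 131.2, 139.6 and 176.2 CPM in Prmt5 KO, a log2 fold change of 0.41 (edgeR adjusted p = 0.672) that was 0.16 without Prmt5 KO 1 and Prmt5 KO 4. An overlapping gene on the same strand, Gm28043, covers 28.5% of the Rnf8 transcript, and at 111.8 ± 26.5 and 151.3 ± 23.7 CPM (SD, n = 4 each) it shares reads with Rnf8, which cannot be told apart.

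Mdc1, the mediator that reads phosphorylated H2AX, was at 28 ± 5.88 CPM in Control and 36.8 ± 18.7 CPM in Prmt5 KO (SD, n = 4 each). Its difference came from Prmt5 KO 1 at 64.3 CPM, and without that library the log2 fold change was -0.02 in place of 0.40. Trp53bp1, which encodes 53BP1, the protein that holds back end trimming, was at 217.4, 194.6, 156.3 and 185.2 CPM in Control and 184.9, 208.5, 210.4 and 313 CPM in Prmt5 KO (log2 fold change 0.28, edgeR adjusted p = 0.756). Only Prmt5 KO 4 lay outside the Control range. Exons of Tubgcp4 on the opposite strand cover 22.1% of the Trp53bp1 transcript, and Tubgcp4 was highest in Control 3. Without Prmt5 KO 1 and Prmt5 KO 4 the median of this role was 0.16, with all 5 still above 0.

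Per length of transcript the members spanned a wide range. H2afx was highest, at 106.3 ± 25.4 CPM per kb in Control and 142.3 ± 26.9 CPM per kb in Prmt5 KO (SD, n = 4 each). Rad9a, at 48.5 ± 11.1 CPM per kb in Control, and Topbp1, at 42.1 ± 2.38 CPM per kb, came next, within 1 SD of each other. Of the MRE11 complex in Control, Nbn at 36.2 ± 12.7 and Rad50 at 30.8 ± 6.03 CPM per kb lay within their spread. Mre11a was lower, at 15.7 ± 2.71 CPM per kb (SD, n = 4 each). Chek2 at 18.9 ± 2.53 CPM per kb was above Atm, its activator, at 4.09 ± 1.48 CPM per kb, while Chek1 at 11 ± 7.81 and Atr at 8.4 ± 1.51 CPM per kb lay within their spread (SD, n = 4 each, Control). At the low end were Hus1 at 1.79 ± 0.713, Fancm at 2.26 ± 1.87 and Fance at 2.44 ± 0.732 CPM per kb, with Fancf at 0.325 ± 0.336 CPM per kb (SD, n = 4 each, Control). The transcripts used were between 1384 and 10724 bases long, and even coverage along them was not measured.

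**Figure D4:**
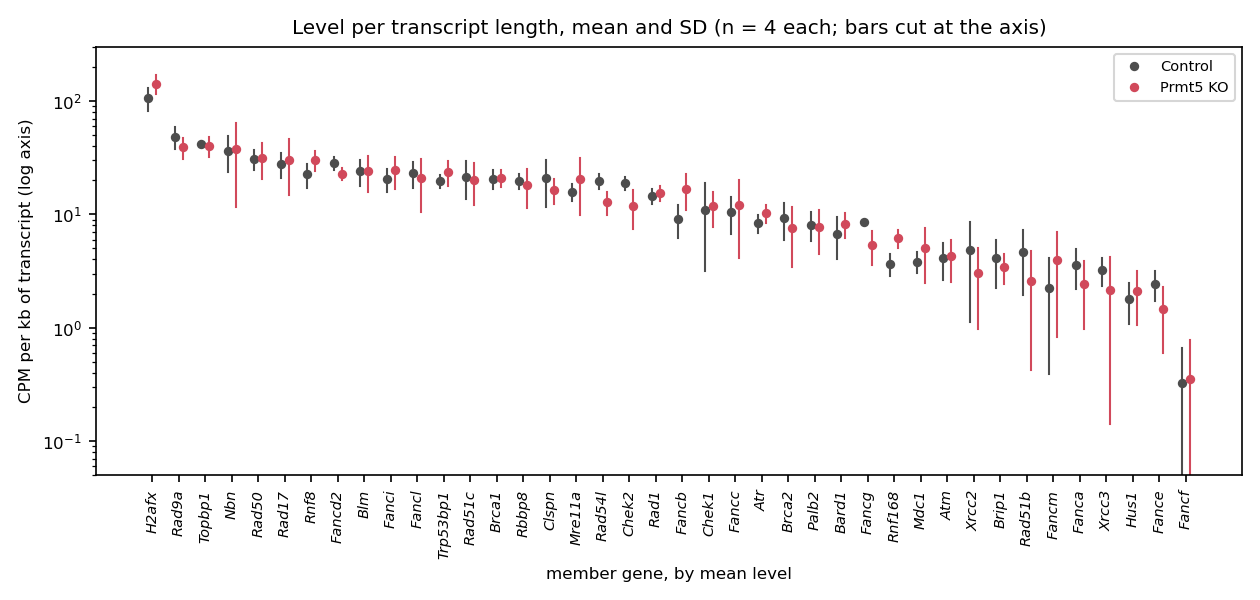
CPM per kb of transcript (y axis, log scale) of the 40 members, ordered by mean level, in Control (grey) and Prmt5 KO (red); points are means, lines are SD over 4 libraries and are cut where they leave the axis. H2afx stands highest at 106.3 CPM per kb in Control and Fancf lowest at 0.325.

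How far the members varied differed between libraries. The median coefficient of variation was 25.5% in Control and 35% in Prmt5 KO for the members, beside 31.7% and 39.9% for all genes tested. In Prmt5 KO 2 and 3 alone it was 16.3% for the members and 18.9% for all genes. These values rest on fewer libraries than those of Control, which by itself tends to lower them. The libraries were also picked because the others stand apart, so these values cannot be set against Control. Prmt5 KO 1 held the highest value of the 8 libraries for 15 members (38.5%, against 17.8% of all genes) and the lowest for 8 (20.5%, against 17.2%). Prmt5 KO 4 held the lowest for 11 (28.2%, against 24% of all genes) and the highest for 4 (10.3%, against 23.7%). Prmt5 KO 3, the deepest library, held 1 highest and 1 lowest. Without Prmt5 KO 1 the members' median log2 fold change was -0.14, and without Prmt5 KO 4 it was 0.01; no member was called in either fit.

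**Figure D5:**
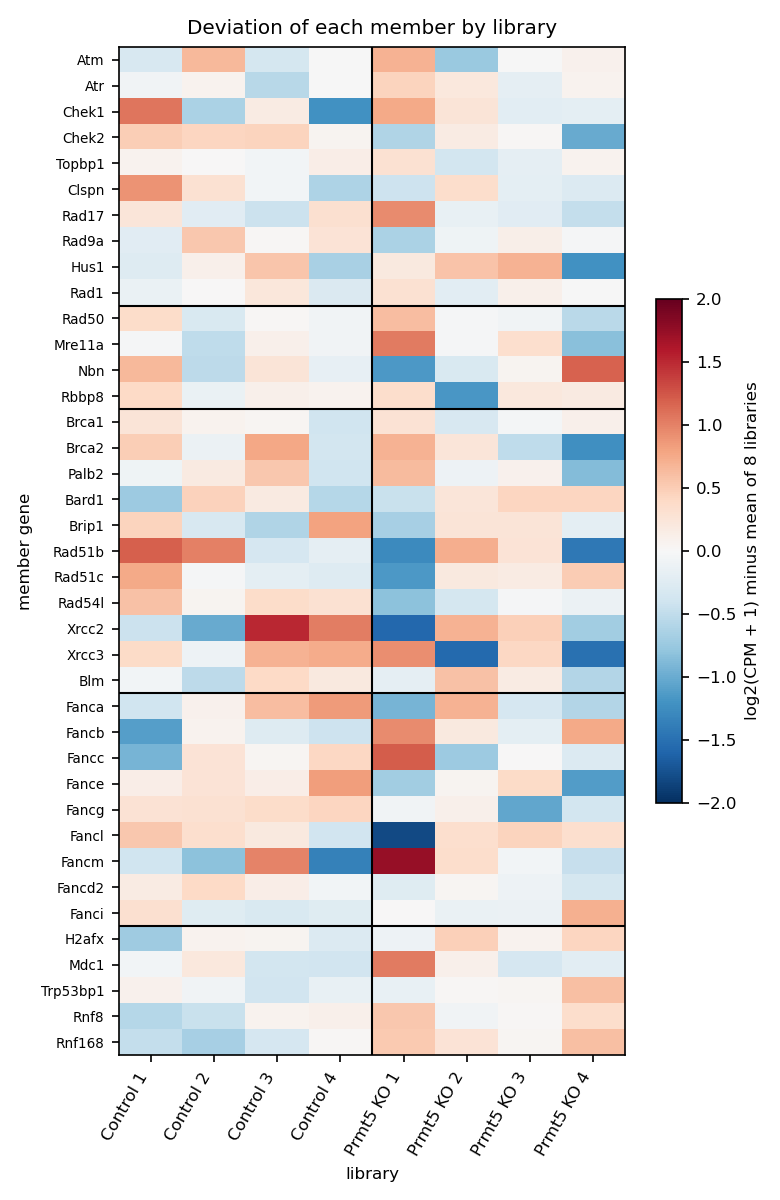
Deviation of log2(CPM + 1) from the mean of the 8 libraries (colour) for the 39 tested members (rows, with lines between roles) in each library (columns). Fancl stands low and Fancm high in Prmt5 KO 1, and the column of Prmt5 KO 3 is the palest.

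Transcripts that a cell may not translate were compared with the coding ones, since PRMT5 acts on splicing proteins. For 17 members an annotated transcript with a retained intron, or one marked for nonsense-mediated decay, held at least 20 counts. The log2 ratio of that transcript to the most counted coding transcript was higher in Prmt5 KO for 8 and lower for 9, with differences from -1.14 to 0.75. None of the 17 had an unadjusted p under 0.05 (two-sided exact permutation over 70 assignments, lowest adjusted p = 0.607), and as the smallest possible p is 0.0286, at least 10 of them would have had to separate fully for any to pass. Fanca had the largest difference: its retained-intron transcript Fanca-210 held 39.6, 44.8, 11.4 and 34.1 counts per 100 of the coding transcript in Control and 11.4, 18.1, 17.5 and 6.45 in Prmt5 KO. For Fancd2 the corresponding values were 9.61, 15, 13.5 and 6.67 in Control and 5.98, 8.47, 8.1 and 3.41 in Prmt5 KO. In both genes the retained-intron share was lower on average in Prmt5 KO, and the groups overlapped. Fanca-210 held only 118 counts over the 8 libraries. Atm moved the other way by a similar amount, with a difference of 0.75 against -0.80 for Fancd2. Its values ran from 0.73 to 47.3 within Control. For Rad1, Xrcc3, Fance, Fancg, Fanci and Rnf8 both transcripts had nearly the same counts in every library, so the ratio stayed near 1. Reads appear to be counted for every transcript they overlap, so transcripts that share exons share reads. The ratios of these genes could hardly move and say little about retained introns or decay, though they count among the 17. How far shared reads damp the other ratios was not tested.

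Other genes of these pathways, chosen by function, likewise gave no call by edgeR. Of 68 tested genes among 71 listed, 0 were called by edgeR and 7 had an unadjusted p under 0.05 (10.3%, against 8.15% of all genes), 6 of them lower, a direction that 3.69% of all genes had. Uimc1, which encodes RAP80, the protein that brings BRCA1 to ubiquitin-marked chromatin, had the lowest p, at 53.9, 19.6, 36.8 and 44 CPM in Control and 18.9, 10.1, 12.5 and 11.7 CPM in Prmt5 KO. Its groups did not overlap (log2 fold change -1.54, SE 0.42, edgeR adjusted p = 0.303), and DESeq2 called it (adjusted p = 0.0269). Rnf169, which competes at RNF168 marks, was at 53.6 ± 7.27 and 91.1 ± 32.4 CPM (SD, n = 4 each), with groups apart in the higher direction (edgeR adjusted p = 0.491). Among 26 tested recombination genes, the helicase gene Recql was at 86.9 ± 19.1 and 36.6 ± 19.6 CPM (SD, n = 4 each), and its log2 fold change of -1.25 did not pass (edgeR adjusted p = 0.371). Among 14 tested Fanconi genes, the nuclease gene Slx1b (log2 fold change -2.50, edgeR adjusted p = 0.434) was at 1.52 and 4.94 CPM in Control 1 and 3 but 19.6 and 21.6 CPM in Control 2 and 4, and Mad2l2 was at -0.74. Among 16 tested checkpoint genes, the clamp loader gene Rfc5 was at a log2 fold change of -0.40 and the phosphatase gene Cdc25c at 0.61, and neither passed.

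These values stand beside 2 other groups of genes in the same libraries. Of 20 replication and S phase genes 0 were called, with a median log2 fold change of 0.00 and a summed level of 7748 to 8990 CPM in Control and 7917 to 9446 CPM in Prmt5 KO. The 7 p53 feedback and arrest genes listed, of which Mdm2 and Ccng1 were called higher, were chosen with earlier results known and summed to 275.9 to 320.1 CPM in Control and 815 to 824 CPM in Prmt5 KO. The other 5 of these 7 genes were not called, though all 7 had an unadjusted p under 0.05 by edgeR (8.15% of all genes). Their groups did not overlap for 6 of the 7 (4.9% of all genes). Atm, Atr, Chek1 and Chek2, whose kinases act upstream of p53, were not called. None of these kinase genes had an unadjusted p under 0.05, and their groups overlapped. The intervals of Chek1 (-0.89 to 1.09) and Chek2 (-1.42 to 0.09) reached a 2-fold change, and those of Atm and Atr did not. Kinase activity was not measured, and a link between these genes and the p53 targets was not tested.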

How the data were processed

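The deposited files hold raw read counts per Ensembl transcript, in lists from which transcripts without a read are absent, per the file headers and values. Builds named by the submitters' processing notes are GRCm38 and mm10; the sources used here do not give the aligner, counter, annotation release or strand setting. Of 66262 transcript identifiers 64258 (97%) matched GENCODE M21 on GRCm38, giving 21444 genes; the rest, 1.75% to 1.9% of a library's counts, were left out. Each gene took the count of the transcript that had most reads over the 8 libraries together, as reads appear to be counted for every transcript they overlap. For 5 members (Rad1, Rad54l, Fance, Fancg and Fanci) that transcript is annotated as non-coding.

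Genes were kept by filterByExpr (minimum count 10, minimum total 15), scaled by TMM and compared with edgeR's quasi-likelihood test (robust) in all 8 libraries, with Benjamini-Hochberg adjustment at 0.05. The SE was the log2 fold change divided by the square root of F, and 95% intervals used its t distribution. The test was run on simulated counts for the 10990 genes and called 2 of 10790 unchanged ones. In the transcript ratios a pseudocount of 0.5 was used, and the coding transcript was the denominator also where the gene value is non-coding, a choice made after the data were seen. Exon overlaps came from GENCODE M21, promoters from RefSeq, and copies elsewhere from blastn (at least 200 bases at 95% identity). Libraries were not duplicates. The members and lists were chosen with earlier results of these data known. Values in every library are given for Prmt5, for members with an unadjusted p under 0.05, and in each role for the lowest p and the highest level per length; those of other members (such as Fancg, Rnf168, Fancl, Fanci, Brca1, Chek1, Rnf8 and Trp53bp1) were chosen after their values were seen. Of each list of other pathway genes the 2 with the lowest p are named, except 1 gene that is not reported here. Alternatives covered scaling, tool, filter, robust estimation, replicate block, gene value and left-out libraries; coding transcripts as gene values were added after the data were seen. Versions were R 4.3.3, edgeR 4.0.16, DESeq2 1.42.0 and scipy 1.17.1.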

Additional observations from a re-analysis of the deposited data

Results flagged for a closer look

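For each member and each group, the gap between the most extreme library and its nearest neighbour was set against the whole range of the group's 4 CPM values. Of 80 such sets 6 passed Dixon's 95% critical value; about 1 in 20, hence 4, pass by chance alone. Among the Prmt5 KO libraries, Rad17 was high in Prmt5 KO 1 (151.5 CPM, the others from 56.1 to 70.7), Fancl was low in Prmt5 KO 1 (14.9 CPM, the others from 68.5 to 74.1) and Fanci was high in Prmt5 KO 4 (161 CPM, the others from 89.1 to 98.8). Among the Control libraries, Chek2 was low in Control 4 (34.5 CPM, the others from 45.1 to 47), Fance was high in Control 4 (7.74 CPM, the others from 4.39 to 4.91) and Fanci was high in Control 1 (122.4 CPM, the others from 79 to 82.8). Prmt5 KO 1 and Prmt5 KO 4, the libraries that stand apart in multidimensional scaling, account for all 3 in the Prmt5 KO group.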

How the results depend on the processing

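No member was called in any of the 17 alternative fits, where the lowest adjusted p of a member lay between 0.282 and 0.809, and the members' median stayed between -0.14 and 0.09. The number of genes called over the whole table was 3, against 107 with DESeq2, 7 with no filter, 1 with transcripts summed, 2 without robust estimation, 0 without Control 2 and Control 3, and 1 without Prmt5 KO 1 and Prmt5 KO 4; leaving out 1 library gave 1 to 2. DESeq2 called 1 of the other pathway genes, Uimc1. Replicate numbers are shared by the groups, and the labels do not say whether they pair the libraries. Deviations of same-numbered libraries had correlations of 0.07, 0.04, 0.00 and 0.05, which show no pairing but cannot exclude it. With the replicate block 1 gene was called, 0 members, and Rad50 (-0.01), Nbn (-0.09) and Blm (-0.02) changed sign. With transcripts summed Rad50 was at -0.02, and the members' median level was 27.5 CPM per kb in place of 14. Without Control 2 and Control 3 the sign changed for Chek1 (-0.14), Rad17 (-0.13), Rad50 (-0.10), Nbn (-0.11), Palb2 (0.27) and Blm (-0.01). Without Prmt5 KO 1 and Prmt5 KO 4 it changed for Atm (-0.38), Chek1 (-0.07), Rad17 (-0.20), Rad1 (-0.00), Rad50 (-0.07), Nbn (-0.23), Brca1 (-0.18), Brip1 (0.04), Rad51c (0.04), Fancc (-0.34), Fancl (0.18) and Fanci (-0.04). Leaving out 1 library moved Atm from -0.23 to 0.33, Chek1 from -0.17 to 0.70, Topbp1 from -0.19 to 0.04, Rad17 from -0.29 to 0.28, Rad50 from -0.22 to 0.19, Nbn from -0.51 to 0.33, Rbbp8 from -0.26 to 0.13, Brca1 from -0.10 to 0.12, Palb2 from -0.35 to 0.15, Brip1 from -0.44 to 0.04, Rad51c from -0.28 to 0.21, Blm from -0.20 to 0.19, Fancc from -0.33 to 0.46, Fancl from -0.32 to 0.16 and Mdc1 from -0.02 to 0.56. Role medians with 1 library left out ran from -0.18 to 0.11 for damage kinases and clamp, -0.10 to 0.23 for break ends (-0.05 with the replicate block), -0.39 to -0.16 for BRCA and strand exchange, -0.32 to -0.02 for Fanconi genes and 0.36 to 0.53 for break chromatin. The sign of the members listed above is therefore not settled by the data. Other members, among them Rad54l (-1.0 to -0.50) and Fancb (0.41 to 1.26), kept their sign in every fit. The exact permutation tests of transcript ratios gave 0 calls under each alternative; with the replicate block they cannot go under p = 0.125. The cause of these changes was not tested. For 21 of 39 members the interval reaches a 2-fold change, and what part depth has in this was not tested.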
